A study of Mus musculus with 77 samples.

Results

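The liver secretes most of the proteins that make blood clot and most of the complement proteins of plasma. Here the mRNA level, ribosome occupancy and translation efficiency of 38 listed genes for secreted complement, coagulation and fibrinolysis factors were followed in mouse liver. The members were taken from a list of gene names, which was chosen with earlier results of these data known. All 38 were among the 25266 genes of the count files, and 37 passed the filter on low counts that left 10696 genes for testing. The member that did not pass was Klkb1, the gene of plasma prekallikrein, which had no counts in the coding sequence column of any library.

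The livers came from 24 adult male mice of 12 to 24 weeks on a C57BL/6J background, each of which gave 1 total RNA library and 1 library of ribosome-protected fragments (RPF). The Aco1 line compared Aco1+/+ with Aco1-/- mice, which carry the allele Aco1tm1.1Mwh and lack iron regulatory protein IRP1 throughout the body. The Ireb2 line compared Ireb2+/+ with Ireb2-/- mice, which carry Ireb2tm1.2Mwh and lack IRP2 throughout the body. All mice were kept in a light-dark cycle with free access to food, and 3 mice of each genotype were killed at ZT5, in the middle of the light phase, and 3 at ZT12, when lights go off. The comparisons ask how these secreted factors stand at the 2 times of day and whether loss of either IRP moves them.

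Complement is a cascade of plasma proteins that marks and lyses foreign cells. It is entered through antibody (classical pathway), through sugars bound by mannose-binding lectins (lectin pathway) or through spontaneous activation of C3 (alternative pathway), and it ends in a pore built from the terminal components. Coagulation is a cascade of proteases, several of them dependent on vitamin K, that ends with thrombin cutting fibrinogen into fibrin, and fibrinolysis by plasmin removes the clot. Hepatocytes make nearly all of these proteins, and the 3 fibrinogen chains are encoded by neighbouring genes that are known to be expressed together and to rise in the acute phase response.

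Counts over all columns ranged from 1546347 to 7059389 per RNA library and from 2633276 to 14292376 per RPF library, and coding sequence (CDS) counts made up 48.3% to 66.7% of the former and 91.9% to 96.1% of the latter. Levels are given as CPM, the CDS counts scaled by library size and upper-quartile factors over all 48 libraries, and translation efficiency (TE) as log2 of RPF CPM over RNA CPM in the same mouse. All 10 hepatocyte markers were in the files, and their summed RNA level was 114160 to 166690 CPM at ZT5 and 142100 to 182690 CPM at ZT12. Of these, 3 were called higher at ZT12 for RNA and 4 for RPF. The summed cholangiocyte markers had a median of 29.3 CPM at ZT5 (17.1 to 54.0) and 14.7 CPM at ZT12 (8.97 to 29.3), 6 of 7 listed genes being in the files and 1 of 4 tested being called lower for RNA (3 for RPF). For RPF 3 of 10 endothelial, 2 of 9 stellate and 1 of 5 erythroid markers were also called lower, and for RNA 1 endothelial and 1 stellate marker, while none of the 9 Kupffer cell markers was called, and the part of these lists in the results was not tested. Neutrophil and lymphocyte marker sums (3 of 8 listed genes of each in the files) stayed at or below 3.31 CPM in every RNA library. In bulk liver, fewer cells of a type and less RNA per cell cannot be told apart. The deleted genes followed their labels at the RPF level: Aco1 RPF ranged from 347.1 to 591 CPM in Aco1+/+ livers and from 74.8 to 123.2 CPM in Aco1-/- livers, and Ireb2 RPF from 62.3 to 81.4 CPM in Ireb2+/+ and from 32.5 to 41.2 CPM in Ireb2-/-. At the RNA level Ireb2 overlapped between the genotypes (71.5 to 148.01 CPM against 98.9 to 162 CPM). Both knockout alleles are known to leave an mRNA.

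The genes that moved most with time of day were those of the fibrinogen chains, Serpinf2 and Mbl1, and the 150 bases before the RefSeq start of each are shown so that the region next to these starts can be read beside the values (RefSeq, GRCm38.p6). On chromosome 3 the fibrinogen genes Fgg, Fga and Fgb lie within 42140 bases, with 11096 bases between Fgg and Fga and 8618 between Fga and Fgb, and Fgb is read from the opposite strand. Capitals mark the CTGGGA and GTTAAT letters described below, the latter appearing as ATTAAC where it lies on the other strand. The window of Fga covers chr3:83026003-83026152 (+), that of Fgb chr3:83049864-83050013 (-) and that of Fgg chr3:83007574-83007723 (+). The window of Serpinf2 covers chr11:75439502-75439651 (-) and that of Mbl1 chr14:41151306-41151455 (+).
Fga: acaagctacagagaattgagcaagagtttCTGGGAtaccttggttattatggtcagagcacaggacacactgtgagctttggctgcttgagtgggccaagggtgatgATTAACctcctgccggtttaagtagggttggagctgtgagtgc
Fgb: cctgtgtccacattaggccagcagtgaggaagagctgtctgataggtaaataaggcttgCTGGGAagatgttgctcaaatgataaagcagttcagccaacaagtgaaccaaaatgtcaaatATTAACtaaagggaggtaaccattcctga
Fgg: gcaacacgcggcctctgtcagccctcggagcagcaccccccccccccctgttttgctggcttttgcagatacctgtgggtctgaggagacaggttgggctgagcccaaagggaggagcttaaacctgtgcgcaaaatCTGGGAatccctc
Serpinf2: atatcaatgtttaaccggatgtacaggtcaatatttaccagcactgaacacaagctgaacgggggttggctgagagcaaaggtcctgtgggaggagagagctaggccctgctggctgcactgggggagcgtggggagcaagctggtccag
Mbl1: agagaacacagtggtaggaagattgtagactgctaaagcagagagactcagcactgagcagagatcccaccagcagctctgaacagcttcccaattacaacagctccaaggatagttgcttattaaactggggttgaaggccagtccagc

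RefSeq promoter windows were found for 29 of the 38 members (30 windows). Each window was searched on both strands for 6 short motifs, and no motif lies within another. The letters CTGGGA, known from interleukin-6 responsive fibrinogen promoters, were in the windows of all 3 fibrinogen genes and in 10 of the 30 member windows, against 17.7% of all 32851 windows of this length. In Fgg they lay 8 to 13 bases before the start, in Fgb 86 to 91, and in Fga they ended 116 bases before it. The letters GTTAAT, a half-site of the hepatocyte factor HNF1, were in 7 member windows including Fga and Fgb, against 3.71% of all windows. The windows of F9, Masp2 and Pros1 held TTCNNNGAA, the letters bound by STAT factors (4.09% of all windows), that of F13b held TTANGTAA, the D-box letters (1.11%), and those of Klkb1 and Vtn held TATAAA (7.57%). No member window held CACGTG, the E-box of the core clock, which was in 4.30% of all windows. None of the 6 motifs was in the windows of Serpinf2 or Mbl1. These matches are descriptions of letters and not of bound factors.

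Between ZT5 and ZT12 the clearest movement was lower fibrinogen. Averaged over the 4 genotypes, all 3 chains had less RNA at ZT12, with falls of 28.8% for Fga, 30.1% for Fgb and 32.8% for Fgg, and their RPF fell by 30.0%, 28.9% and 29.9%. Serpinf2, the gene of the plasmin inhibitor alpha-2-antiplasmin, and Mbl1, the gene of mannose-binding lectin A, fell by 28.4% and 26.9% for RNA. In edgeR's quasi-likelihood test over 24 livers, 12 of 37 members passed an adjusted p of 0.05 at the RNA level, 8 of them lower and 4 higher at ZT12. Of all 10696 genes 22.3% passed (12.5% lower and 9.71% higher), and the difference from the members' share was not tested. With the first sequencing run alone 8 members passed, a count given without the share of all genes in that setting. For RPF, 11 members passed, 8 lower and 3 higher, while 31.8% of all genes passed (18.2% lower and 13.6% higher), a share near that of the members. The median change of the 37 members was -0.02 (log2) for RNA and -0.01 for RPF, beside -0.04 for RNA over all genes. Counted only by levels, 0 members had 12 ZT12 livers fully apart from the 12 ZT5 livers, compared with 1.31% of all genes for RNA and 1.95% for RPF.

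**Figure D1:**
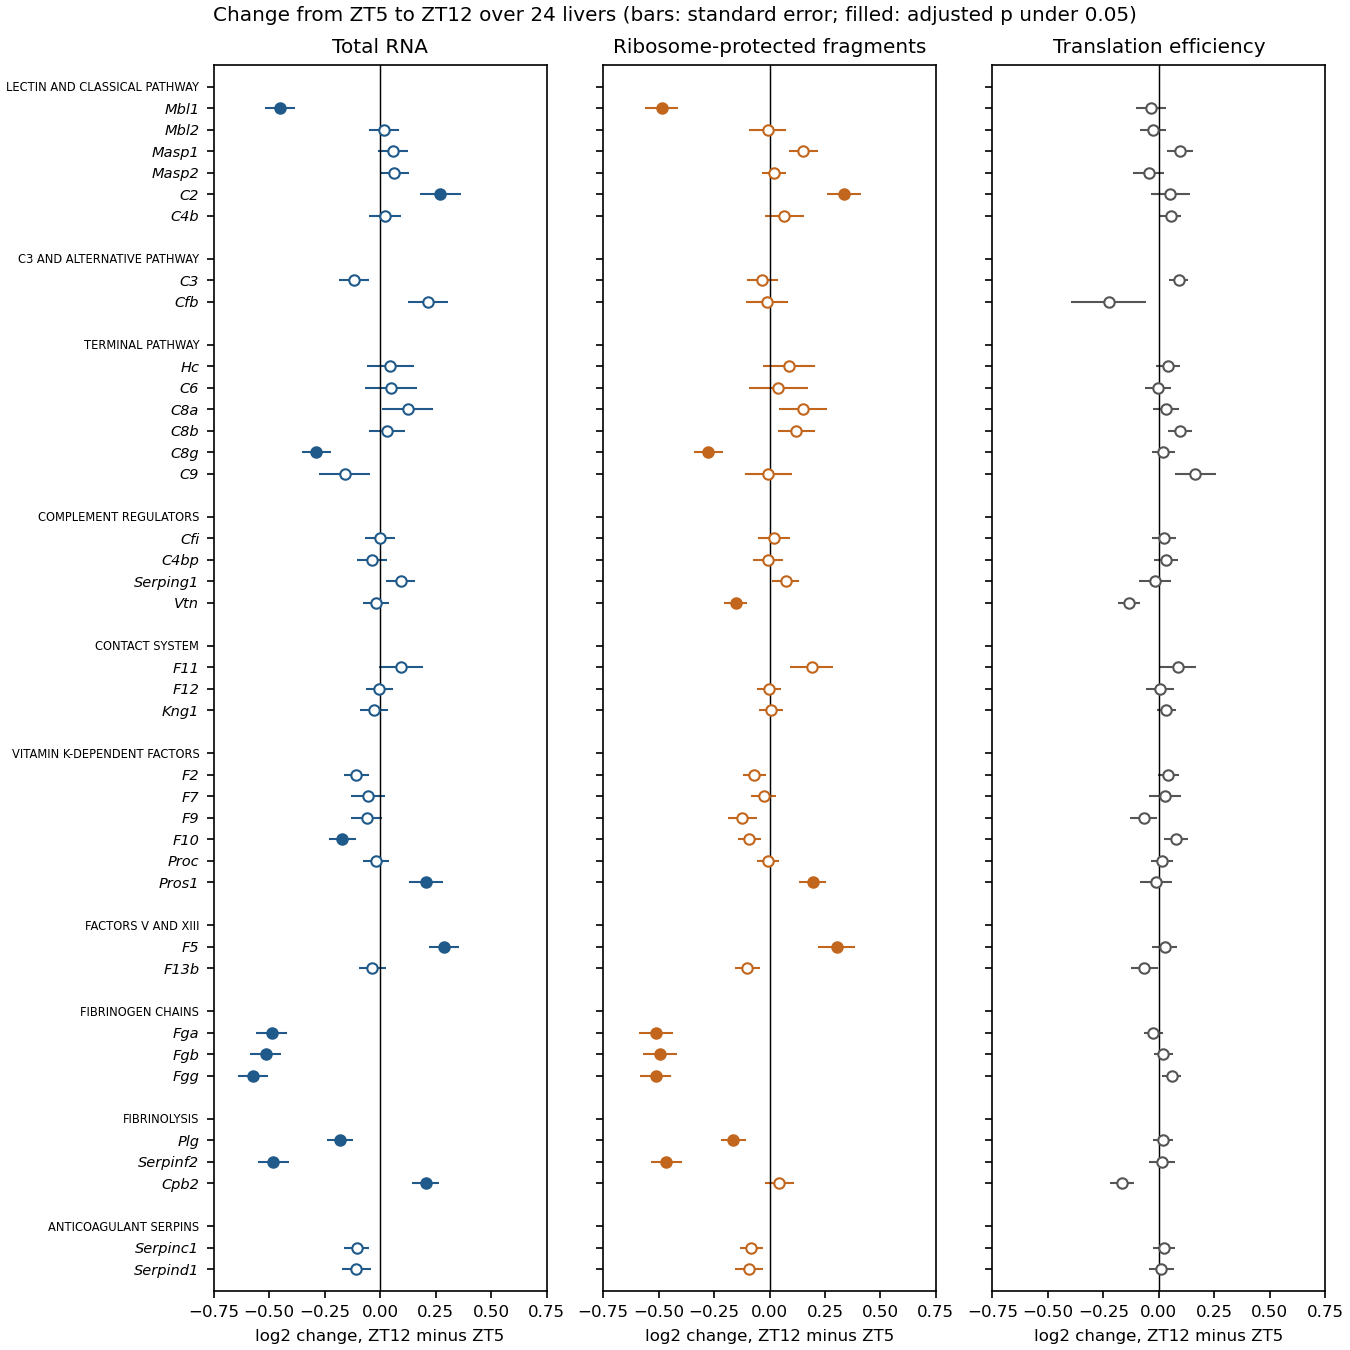
Each point is the log2 change from ZT5 to ZT12 of one gene, averaged over 4 genotypes (24 livers), for total RNA, RPF and TE; bars are standard errors, and filled points passed an adjusted p of 0.05. The fibrinogen chains, Serpinf2 and Mbl1 lie near -0.5 in both the RNA and the RPF panel, and no TE point is filled.

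Fibrinogen is made of 3 paired chains, which thrombin turns into the fibrin mesh of the clot. Fga, the gene of the alpha chain, had 4695 to 6668 CPM of RNA in the 12 ZT5 livers (median 5600.4) and 3073 to 5490.1 CPM in the 12 ZT12 livers (median 3942.5). All ZT12 livers lay below the ZT5 median, and 11 of 12 lay below the lowest ZT5 liver. The change was -0.49 ± 0.07 (log2, SE), with an adjusted p of 9.2e-07.

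Fgb, the beta chain gene, had 4064 to 6262 CPM at ZT5 (median 5554) and 3131 to 5583 CPM at ZT12 (median 3708). The change was -0.52 ± 0.07 with an adjusted p of 4.3e-07, and 9 of 12 ZT12 livers lay below every ZT5 liver. Fgg, the gamma chain gene, had 2936 to 4451 CPM at ZT5 (median 3759) and 2139.5 to 3426 CPM at ZT12 (median 2451). Its change of -0.57 ± 0.07 had the smallest adjusted p of all members (1.6e-08), and 11 of 12 ZT12 livers lay below every ZT5 liver. Ireb2-/- ZT12 replicate 2 had the highest ZT12 level of each of the 3 chains.

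Ribosome occupancy fell as well. Fga RPF was 8466 to 12013 CPM at ZT5 (median 9533.5) and 5095 to 10564 CPM at ZT12 (median 6619), a change of -0.51 ± 0.08 (adjusted p = 8.2e-06). Fgb RPF was 7829 to 12107 CPM at ZT5 (median 9479.9) and 5493 to 10364 CPM at ZT12 (median 6358), a change of -0.49 ± 0.08 (adjusted p = 1.6e-05). Fgg RPF was 6037 to 9306 CPM (median 7342) and 4215 to 7249 CPM (median 5007), a change of -0.51 ± 0.07 (adjusted p = 1.8e-06). In each chain 11 of 12 ZT12 livers lay below the lowest ZT5 liver.

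**Figure D2:**
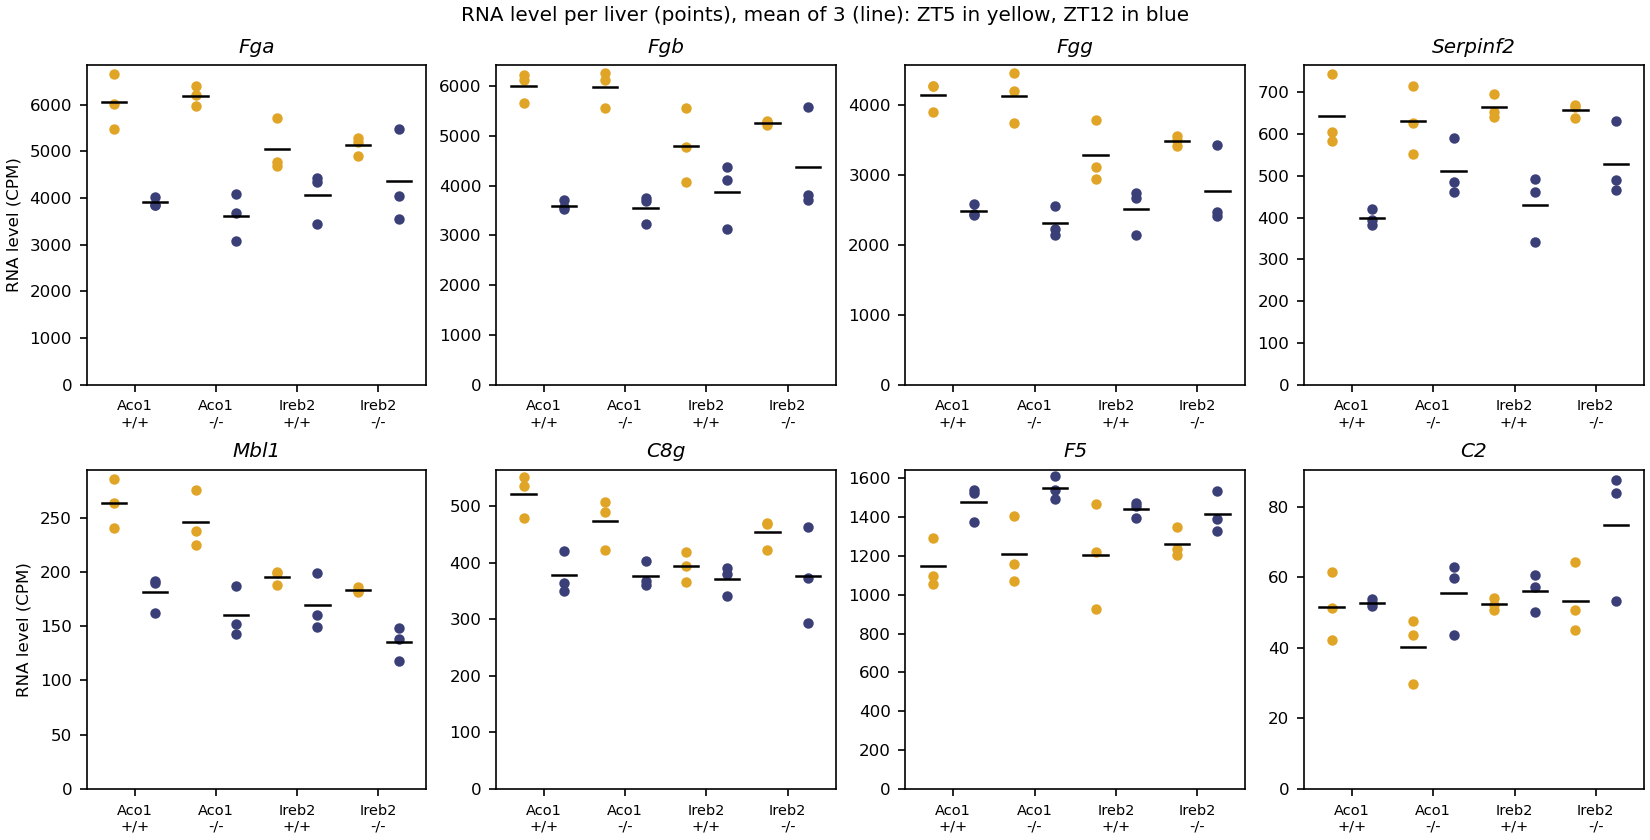
RNA level in CPM of each liver (points) and the mean of 3 livers (line) for 8 genes with changes between ZT5 (yellow) and ZT12 (blue), by genotype; axes start at 0. Fga, Fgb and Fgg have lower means at ZT12 in every genotype, with 1 high blue point in Ireb2-/-, and F5 and C2 are higher at ZT12.

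Among the other fibrinolysis genes, Serpinf2 stood close to fibrinogen. Its RNA was 553 to 745 CPM at ZT5 (median 647) and 342 to 631 CPM at ZT12 (median 464), and 10 of 12 ZT12 livers lay below every ZT5 liver. The change was -0.48 ± 0.07 for RNA (adjusted p = 1.2e-06) and -0.47 ± 0.07 for RPF (adjusted p = 7.9e-06), where levels were 1218 to 1632 CPM at ZT5 and 743 to 1412 CPM at ZT12. Plg, the gene of plasminogen, from which plasmin is cut, fell less. Its RNA median went from 2908 CPM (2524 to 3049) to 2557 CPM (2243 to 3209), a change of -0.18 ± 0.06 (adjusted p = 0.022), with -0.16 ± 0.06 for RPF (adjusted p = 0.026). Plg RPF was 4568 to 5713 CPM at ZT5 (median 5119.7) and 4128 to 5361 CPM at ZT12 (median 4520.3). The Plg calls were lost with TMM scaling and with counts over all columns. That for RNA was also lost with the first sequencing run alone, and that for RPF with DESeq2. Cpb2, which encodes the fibrinolysis inhibitor TAFI, rose at the RNA level from a median of 301 CPM (231 to 375) to 342 CPM (299 to 434), by 0.20 ± 0.06 (adjusted p = 0.014), and this call held under each alternative and without each mouse. Its RPF medians were 368 CPM (297 to 452) and 395 CPM (314 to 499), a difference of 0.04 ± 0.07 with an adjusted p of 0.65.

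In the lectin and classical pathway, Mbl1 fell and C2 rose, with the other 4 members not passing. Mbl1 RNA was 182 to 286 CPM at ZT5 (median 212) and 118 to 199 CPM at ZT12 (median 156). All 12 ZT12 livers lay below the ZT5 median, and the change was -0.45 ± 0.07 (adjusted p = 1.8e-06). RPF changed by -0.49 ± 0.07 (adjusted p = 8.9e-06), from a median of 329 CPM (265 to 419) to 242 CPM (158 to 314). Mbl2, the gene of mannose-binding lectin C and the closest relative of Mbl1 in the list, had RNA medians of 351 and 341 CPM and a difference of 0.02 ± 0.07, with an adjusted p of 0.90.

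C2, the protease of the classical and lectin convertase, had few counts (43 to 265 per RNA library). Its RNA was 29.8 to 64.3 CPM at ZT5 (median 50.8) and 43.7 to 87.7 CPM at ZT12 (median 55.5), a rise of 0.27 ± 0.09 (adjusted p = 0.028). This RNA call was lost when any one of 7 mice was left out and with only the first sequencing run. The RPF rise of 0.34 ± 0.08 (adjusted p = 0.0014) was kept without each mouse in turn: medians were 89.1 CPM (66.5 to 103) and 106.5 CPM (92.7 to 167), and every ZT12 liver lay above the ZT5 median. C4b had RNA medians of 2088 CPM (1771 to 2792) and 2047 CPM (1849.6 to 3100.3), and its difference was 0.02 ± 0.07. Because C4b shares most of its sequence with C4a, its value is uncertain. The lectin pathway proteases Masp1 and Masp2 differed by 0.06 ± 0.07 and 0.06 ± 0.07 for RNA, and by 0.15 ± 0.07 (adjusted p = 0.083) and 0.02 ± 0.06 for RPF.

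C3, on which all 3 pathways meet, had RNA of 8835 to 13428 CPM at ZT5 (median 11593) and 8783 to 13275 CPM at ZT12 (median 10199). The groups overlapped almost entirely, and the difference of -0.12 ± 0.07 had an adjusted p of 0.23. Cfb, the protease of the alternative convertase, differed by 0.22 ± 0.09 for RNA (adjusted p = 0.086) and by -0.01 ± 0.10 for RPF. Of the terminal components only C8g, the small lipocalin chain of C8, passed. C8g RNA fell from a median of 469 CPM (366 to 552) to 371 CPM (295 to 464), by -0.29 ± 0.07 (adjusted p = 0.0011), and RPF changed by -0.28 ± 0.07 (adjusted p = 0.0018), from a median of 574 CPM (490.5 to 762) to 511 CPM (440.1 to 567). Of the C8g counts over all columns, 24.8% (RNA) and 12.6% (RPF) were in a column of the files whose content is not given and which was not tested. The RefSeq spans of C8g and Fbxw5 overlap, and how the counting divided such reads is not given in the sources used here. The same holds for C8a with Fyb2, Masp1 with Rtp4, Masp2 with Tardbp, F2 with Ckap5 and Serpind1 with Pi4ka.

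The partner chains of C8g in the C8 protein, C8a and C8b, differed by 0.12 ± 0.12 and 0.03 ± 0.08 for RNA, and neither passed. Hc, the gene of C5, had RNA medians of 1285 CPM (934 to 1751) and 1249 CPM (1022.6 to 2025.5). Its difference was 0.05 ± 0.11, that of C6 was 0.05 ± 0.12 and that of C9 was -0.16 ± 0.12 (adjusted p = 0.35). Among the regulators, Vtn (vitronectin, which blocks pore insertion) had a lower RPF at ZT12, from a median of 4297 CPM (3649 to 4598) to 3809 CPM (3459 to 4518). The RPF change of -0.15 ± 0.05 had an adjusted p of 0.027 and was lost with TMM scaling. Vtn RNA differed by -0.02 ± 0.06, with medians of 2049.5 CPM (1790.1 to 2217) and 2006 CPM (1634 to 2437). Cfi, C4bp and Serping1, which encode factor I, the C4b-binding protein and the C1 inhibitor, differed by -0.00, -0.04 and 0.09 (log2) for RNA and did not pass for RPF either.

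On the clotting side, F5 rose. The gene encodes factor V, the cofactor of the complex that makes thrombin. F5 RNA was 924 to 1469 CPM at ZT5 (median 1209.8) and 1325.5 to 1610.1 CPM at ZT12 (median 1482). All 12 ZT12 livers were above the ZT5 median, and the rise was 0.29 ± 0.07 (adjusted p = 0.0015), with 0.30 ± 0.08 for RPF (adjusted p = 0.0068). F5 RPF was 806 to 1553 CPM at ZT5 (median 1282) and 1237 to 1647 CPM at ZT12 (median 1472). Pros1, the gene of the vitamin K-dependent anticoagulant protein S, rose from 75.1 CPM (56.7 to 95.1) to 83.4 CPM (71.9 to 108.1), by 0.21 ± 0.08 for RNA (adjusted p = 0.049). Its RPF rose by 0.19 ± 0.06 (adjusted p = 0.015), and all 12 ZT12 livers lay above the ZT5 median of 107.5 CPM (94.9 to 126.4 CPM at ZT5, 109.1 to 170.4 CPM at ZT12). The RNA call for Pros1 held without 5 of the 24 mice in turn and was lost without each of the other 19, while the RPF call held without each mouse. With no filter on low counts and with the first sequencing run alone the RNA call was lost as well.

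F10, the gene of factor X, fell by 0.17 on the log2 scale for RNA (SE 0.06, adjusted p = 0.043), from a median of 475 CPM (382 to 530.3) to 423 CPM (348 to 488). The RNA call was lost under 5 of 7 alternative settings, among them TMM scaling and DESeq2. It held without 9 of the 24 mice in turn and was lost without each of the others. The RPF difference of -0.09 ± 0.05 had an adjusted p of 0.18. F2, the gene of prothrombin, had RNA medians of 2027 CPM (1776 to 2196) and 1896 CPM (1615.5 to 2299), a difference of -0.11 ± 0.06 with an adjusted p of 0.17. The other vitamin K-dependent members F7, F9 and Proc (factors VII and IX and protein C) differed by -0.06, -0.06 and -0.02 for RNA, and none passed for RNA or RPF. F13b, the carrier chain of factor XIII, had RNA medians of 328 CPM (222 to 347.1) and 303 CPM (271 to 366) and differed by -0.04 ± 0.06.

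None of the contact system members passed. Kng1, the kininogen gene, had RNA medians of 1688 CPM (1435 to 1885) and 1659.6 CPM (1432 to 1897). Its difference was -0.03 ± 0.06, and because Kng1 and Kng2 are near copies its counts are uncertain. F11 and F12, the zymogens of factors XI and XII, differed by 0.10 ± 0.10 and -0.00 ± 0.06 for RNA. Neither anticoagulant serpin passed. Serpinc1, the gene of antithrombin, had medians of 2216 CPM (1930.4 to 2373) and 1977 CPM (1845 to 2312) with a difference of -0.11 ± 0.06 (adjusted p = 0.19), and Serpind1 (heparin cofactor II) differed by -0.11 ± 0.07 (adjusted p = 0.25).

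No TE change passed the test. In the comparison of TE between ZT5 and ZT12, edgeR called 0 of 37 members against 0.486% of all genes, DESeq2 called 0, and 3 members had an unadjusted p under 0.05, beside 9.40% of all genes. Those were Cpb2 (-0.17 ± 0.06, adjusted p = 0.22), Vtn (-0.13 ± 0.05, adjusted p = 0.29) and C3 (0.09 ± 0.04, adjusted p = 0.47). For Fga, Fgb and Fgg the TE differences were -0.02 ± 0.04, 0.02 ± 0.04 and 0.06 ± 0.04. RNA and RPF of Serpinf2 and Mbl1 fell by like amounts as well, with TE differences of 0.01 ± 0.06 and -0.04 ± 0.07.

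Within single genotypes 3 livers stood against 3, and fewer members passed. In Aco1+/+ livers 6 members were lower at ZT12 for RNA (Fgg, Fgb, Serpinf2, Fga, Mbl1 and C8g), against 7.05% of all genes called in either direction. Fgg RNA was 3898, 4263 and 4277 CPM in the 3 ZT5 livers and 2434, 2420.1 and 2588 CPM in the ZT12 livers of this genotype. Fgb was 5664, 6113 and 6219 CPM at ZT5 and 3567, 3523 and 3711 CPM at ZT12, and Fga was 5485, 6007 and 6668 against 4025, 3859.6 and 3846 CPM. The changes of the 3 chains were -0.74 ± 0.13 for Fgg, -0.74 ± 0.13 for Fgb and -0.63 ± 0.13 for Fga, with every ZT12 liver below every ZT5 liver. Serpinf2 was 604, 745 and 582 CPM at ZT5 and 382, 421 and 394 CPM at ZT12 (-0.69 ± 0.14). Mbl1 was 286, 263 and 240.2 CPM and then 190.1, 162 and 192 CPM (-0.54 ± 0.14), and C8g was 537, 552 and 479 CPM and then 364, 350.1 and 420.2 CPM (-0.47 ± 0.14). The Mbl1 call was lost without any one of 3 of the 6 mice and the C8g call without any one of 4, and both were lost with the first run alone. In Aco1-/- livers Fgg, Fga, Fgb and Mbl1 passed (4 members, all lower, against 5.15% of all genes), and Fgg was 4451, 4205 and 3738 CPM at ZT5 and 2139.5, 2558 and 2232 CPM at ZT12 (-0.84 ± 0.13). Fga was 6395, 6217 and 5981 CPM at ZT5 and 3073, 4083 and 3686 CPM at ZT12 (-0.78 ± 0.13), and Fgb was 6262, 6123 and 5551 CPM and then 3230.1, 3682 and 3754 CPM (-0.75 ± 0.13). Mbl1 was 224, 275 and 237 CPM at ZT5 and 187, 152 and 142.7 CPM at ZT12 (-0.63 ± 0.15), a call lost without Aco1-/- ZT5 replicate 2. In each of these calls of the Aco1 line the 3 livers of ZT5 all lay above the 3 of ZT12. The genes were called on these same livers, so this separation is no further evidence. Its share over all genes was not computed for 3 livers against 3.

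In Ireb2+/+ livers Serpinf2 alone passed for RNA (2.29% of all genes), with 653, 642 and 697 CPM at ZT5 and 460.4, 492 and 342 CPM at ZT12, a change of -0.62 ± 0.14 (adjusted p = 0.012). The call was lost without Ireb2+/+ ZT12 replicate 3, and the RPF call of Serpinf2 in this genotype was lost without any one of 4 of the 6 mice. Fgg in these livers was 3118, 3779 and 2936 CPM at ZT5 and 2741, 2663 and 2146 CPM at ZT12, so that all ZT12 livers were lower, but the change of -0.38 ± 0.14 had an adjusted p of 0.16. In Ireb2-/- livers the only RNA call was a rise of Cfb by 0.52 ± 0.14 (adjusted p = 0.048, against 2.77% of all genes), from 48.1, 43.7 and 44.1 CPM to 65.3, 68.6 and 61.6 CPM. The Cfb call was lost without each of the 6 mice in turn and under 6 of 9 alternatives, DESeq2 among them. Fgg there was 3494, 3553 and 3417 CPM at ZT5 and 2469, 3426 and 2411 CPM at ZT12.

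For RPF the calls in the same order were 4 of 37 in Aco1+/+ (Fgg, Fgb, Serpinf2 and Fga, all lower, 6.64% of all genes), 5 in Aco1-/- (Mbl1, Fga, Fgb, Fgg and Cfb, all lower, 12.1%), 1 in Ireb2+/+ (Serpinf2, lower, 7.53%) and 1 in Ireb2-/- (C2, higher by 0.54 ± 0.14, 5.73%). In Aco1+/+ livers Fgg RPF was 8052, 8018 and 9306 CPM at ZT5 and 4980.4, 4555 and 4884 CPM at ZT12. Fgb RPF was 9607, 10263 and 12107 against 7132, 6088 and 6056 CPM, and Fga RPF was 9569, 9302 and 12013 against 7078, 6412 and 6112 CPM. Each chain was lower in all 3 ZT12 livers. Serpinf2 RPF was 1353, 1574 and 1444 against 915, 994 and 960.0 CPM. The RPF calls of Fga and Serpinf2 in Aco1+/+ were each lost without either of 2 of the 6 mice. In Aco1-/- livers Mbl1 RPF was 353, 419 and 325 CPM at ZT5 and 198, 158 and 234 CPM at ZT12. For Fga RPF the levels there were 10787, 10984 and 9498 against 5095, 5975 and 6825 CPM, and for Fgb RPF 10565, 11112 and 9353 against 5493, 6074 and 6570.2 CPM. For Fgg RPF they were 8475, 8566 and 7362 against 5034, 5075 and 5477 CPM, and for Cfb RPF 137.1, 98.3 and 142.4 against 92.2, 91.2 and 65.8 CPM. The livers of the 2 times did not overlap in any of these, nor for Serpinf2 RPF in Ireb2+/+ (1452, 1445 and 1218 against 949, 1044 and 743 CPM) or C2 RPF in Ireb2-/- (82.5, 91.3 and 97.7 against 105.4, 167 and 123.7 CPM). As for RNA, this separation is no further evidence for genes called on the same livers, and its share over all genes was not computed. The Cfb call in Aco1-/- held without only 1 of the 6 mice and under 5 of 9 alternatives, and the C2 call in Ireb2-/- held without 3 of the 6. The fall of Mbl1 RPF in Aco1-/-, -0.90 ± 0.16 (adjusted p = 0.002), was the largest of these changes. Without Ireb2-/- ZT12 replicate 2 the calls in Ireb2-/- became Fgg for RNA, and Fga, Fgg and Serpinf2 for RPF, all lower, and those of Cfb and C2 were lost. The share of all genes called without that mouse is not given here. For TE, edgeR called 0 members in each genotype, against 0.0187%, 0.15%, 0.533% and 0.00935% of all genes in Aco1+/+, Aco1-/-, Ireb2+/+ and Ireb2-/-. The members with an unadjusted p under 0.05 numbered 2, 1, 4 and 3, beside 7.49%, 8.05%, 8.22% and 4.52% of all genes, and DESeq2 called 0 in each.

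Whether the fall of fibrinogen differed between the lines was tested directly, a test chosen after the changes within genotypes had been seen. The difference of the time changes (Ireb2 line minus Aco1 line) was 0.43 ± 0.14 for Fga, 0.45 ± 0.14 for Fgb and 0.43 ± 0.13 for Fgg at the RNA level, with adjusted p of 0.31, 0.27 and 0.27. For RPF it was 0.43 ± 0.15, 0.52 ± 0.15 and 0.44 ± 0.14, with adjusted p of 0.11, 0.059 and 0.075. In edgeR 0 of 37 members passed for RNA (0.00935% of all genes, 7 members with an unadjusted p under 0.05 beside 8.71% of all genes, 0 with DESeq2). For RPF 0 passed in edgeR (3.19% of all genes, 11 members with an unadjusted p under 0.05 beside 19.1% of all genes), while DESeq2 called 3, which were C9, Fgb and Cfb, and 584 of all 10696 genes. TE had 0 calls (0.0841% of all genes, 1 unadjusted beside 9.82% of all genes, 0 with DESeq2). The RPF count of members moved between 0 and 3 with the setting and between 0 and 4 with single mice left out.

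Loss of IRP1 or IRP2 moved no member past the threshold. For RNA, edgeR called 0 of 37 members in Aco1-/- against Aco1+/+ at ZT5 (0% of all genes) and ZT12 (0.00935%) and in Ireb2-/- against Ireb2+/+ at ZT5 (0.00935%) and ZT12 (0.0187%). For RPF it called 0 members in the same 4 comparisons, against 0.00935%, 0.299%, 0.0654% and 0.028% of all genes, and for TE 0 members against 0.00935%, 0.0935%, 0.00935% and 0%. Members with an unadjusted p under 0.05 numbered 1, 4, 3 and 4 for RNA, beside 3.73%, 7.66%, 5.64% and 4.21% of all genes. They numbered 2, 6, 0 and 3 for RPF (2.79%, 12.7%, 7.64% and 7.62%) and 0, 3, 6 and 1 for TE (2.54%, 6.71%, 7.01% and 3.56%), and DESeq2 called 0 in all 12. The median half-width of the unadjusted 95% intervals of the members' RNA changes lay between 0.28 and 0.29 (log2). The adjusted threshold is stricter, so that with 3 livers against 3 larger changes could go unseen too. Uncalled changes reached 0.55 for RNA (Cfb, Aco1 line at ZT12) and -0.53 for RPF (C9, Aco1 line at ZT5). For TE they reached -0.95 (Cfb, Aco1 line at ZT12).

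Values of some members are given for scale, none of them called. In Aco1-/- livers at ZT12, Cfb RNA was 53.9, 50.5 and 89.0 CPM against 36.2, 43.7 and 54.7 CPM in Aco1+/+, a difference of 0.55 ± 0.20 (adjusted p = 0.51), while Cfb RPF was 92.2, 91.2 and 65.8 CPM against 142, 96.9 and 98.0 CPM (-0.43 ± 0.19, adjusted p = 0.35). The genotypes overlapped in RNA and not in RPF, and the liver with the highest Cfb RNA had the lowest Cfb RPF. Mbl1 RPF at ZT12 differed by -0.47 ± 0.16 in the Aco1 line (adjusted p = 0.25), which was the smallest adjusted p of a member in any genotype comparison. For TE the smallest was that of F9 in the Aco1 line at ZT12 (0.42 ± 0.13, adjusted p = 0.40). In Ireb2-/- livers at ZT12, C2 differed by 0.40 ± 0.17 for RNA (adjusted p = 1.00) and 0.36 ± 0.14 for RPF (adjusted p = 0.53). For fibrinogen RNA the genotype differences were between -0.11 and 0.17 in all 4 comparisons.

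**Figure D3:**
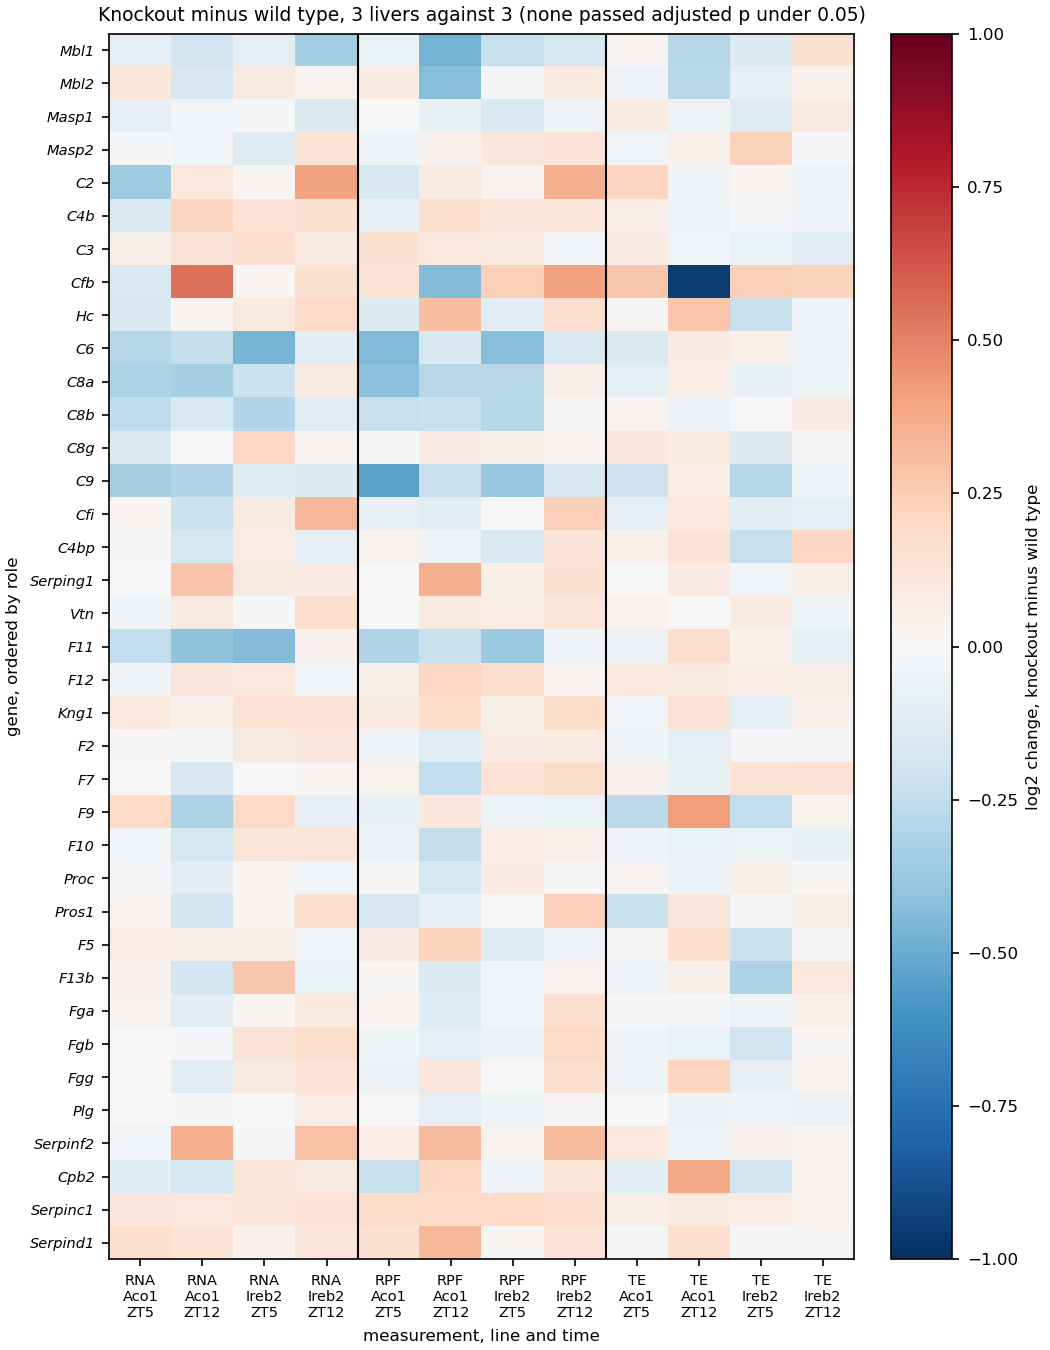
Colour gives the log2 change, knockout minus wild type, of each gene (rows, by role) for RNA, RPF and TE in each line and time (columns, 3 livers against 3). No cell passed an adjusted p of 0.05, and the strongest colour is Cfb TE in the Aco1 line at ZT12.

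No member passed the test of whether the time change differed between genotypes of a line, which does not show that the changes were equal. For the interaction of genotype and time edgeR called 0 members in the Aco1 line (0% of all genes for RNA, 0% for RPF and 0.028% for TE) and 0 in the Ireb2 line (0% for each of RNA, RPF and TE). The members with an unadjusted p under 0.05 were 2, 3 and 2 in the Aco1 line (5.87%, 5.52% and 4.75% of all genes for RNA, RPF and TE) and 0, 0 and 3 in the Ireb2 line (3.86%, 3.98% and 5.25%), and DESeq2 called 0 members in all 6. The smallest adjusted p was 0.39, for F9 TE in the Aco1 line (0.69 ± 0.19).

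The fibrinogen chains varied together from mouse to mouse also within groups. Each liver's deviation from the mean of its group of 3 was taken on the log2 scale, so that time, line and genotype could not give the relation. Over 24 mice Pearson's r for RNA was 0.884 between Fga and Fgb, 0.911 between Fga and Fgg and 0.944 between Fgb and Fgg, with Spearman's rho of 0.872, 0.900 and 0.916. For RPF r was 0.928, 0.885 and 0.953, with rho of 0.903, 0.833 and 0.904. Permuting livers within groups gave p of 6e-05 to 0.00068 for r in these 6 relations (Benjamini-Hochberg adjusted 0.00018 to 0.00068) and 9e-05 to 0.00098 for rho (adjusted 0.000195 to 0.00098). Without the 2 livers farthest from the median on the x axis r was 0.835 to 0.908 for RNA and 0.787 to 0.913 for RPF. Deviations of Fga RNA ran from -0.27 to 0.36, and the highest was again that of Ireb2-/- ZT12 replicate 2. That liver also had the highest RNA of its group for other members, among them Hc, C8a, Cfi, C4b, C9, C6 and Plg. For Mbl1, Masp2, C8g, F7 and F13b it had the lowest. The correlation was not computed for other pairs of members, so whether the relation is particular to fibrinogen was not tested. The genes of a pair share their library, so that a scaling error of a library moves both.

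**Figure D4:**
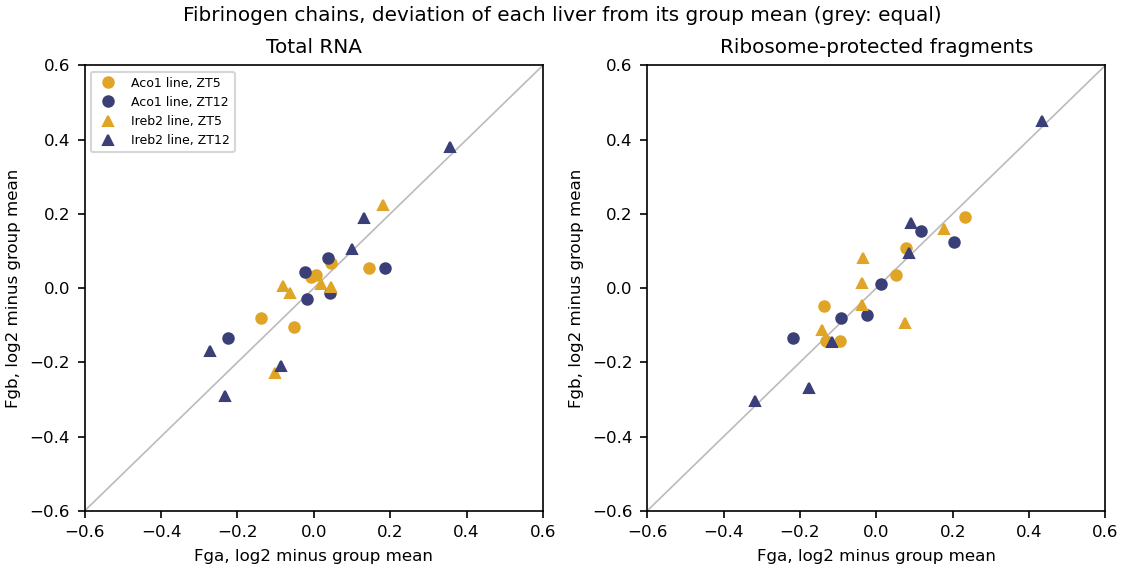
Deviation of each of 24 livers from its group mean (log2) for Fga (x axis) and Fgb (y axis), in RNA and RPF; colour gives the time, the shape the line, and the grey line equal deviations. Points run along the grey line in both panels, with r of 0.884 and 0.928.

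The members differed in mean TE over a range of -0.01 to 1.16. Averaged over all genotypes, the largest TE difference between the times was -0.23 ± 0.17 (Cfb). Within single genotypes it was -0.91 in Aco1-/- (Cfb), -0.46 in Aco1+/+ (F9), -0.25 in Ireb2+/+ (Cpb2) and 0.38 in Ireb2-/- (C9), none of them called. Mean TE over 24 livers was highest for Masp2 (1.16 ± 0.19, SD) and Serpinf2 (1.16 ± 0.16), which do not differ beyond their spread, followed by Vtn (1.01 ± 0.15) and Fgg (1.00 ± 0.10). It was lowest for F5 (-0.01 ± 0.18), Hc (0.01 ± 0.18), C9 (0.09 ± 0.26) and C3 (0.16 ± 0.10), whose ranges overlap. The median over the 37 members was 0.62, beside 0.11 over all 10696 genes, and the middle of the members ran from 0.42 to 0.90 (quartiles). TE is a ratio relative to the library scaling, so its zero has no meaning of its own. With RNA counts taken over all columns the member median became 1.41 and that of all genes 0.07.

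Within a role TE was not uniform. Of the fibrinogen chains Fga and Fgb had the same mean TE (0.80 ± 0.10 and 0.80 ± 0.11) and Fgg was higher (1.00 ± 0.10). The terminal components ran from 0.01 for Hc to 0.75 for C6, the vitamin K-dependent members from 0.43 for F9 to 0.93 for F10, and the contact system from 0.31 for F12 to 0.96 for Kng1. The remaining means were 0.94 for F11, 0.96 for Serpinc1, 0.90 for F7, 0.88 for C2, 0.85 for Cfi, 0.84 for Plg, 0.78 for Serping1 and Serpind1, 0.62 for C8a and Proc and 0.61 for F2. Lower means were those of Mbl1 at 0.59, C8b, Pros1 and Masp1 at 0.55, Mbl2 at 0.44, C8g at 0.42, C4bp at 0.41, C4b at 0.32, F13b at 0.26 and Cpb2 at 0.23.

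**Figure D5:**
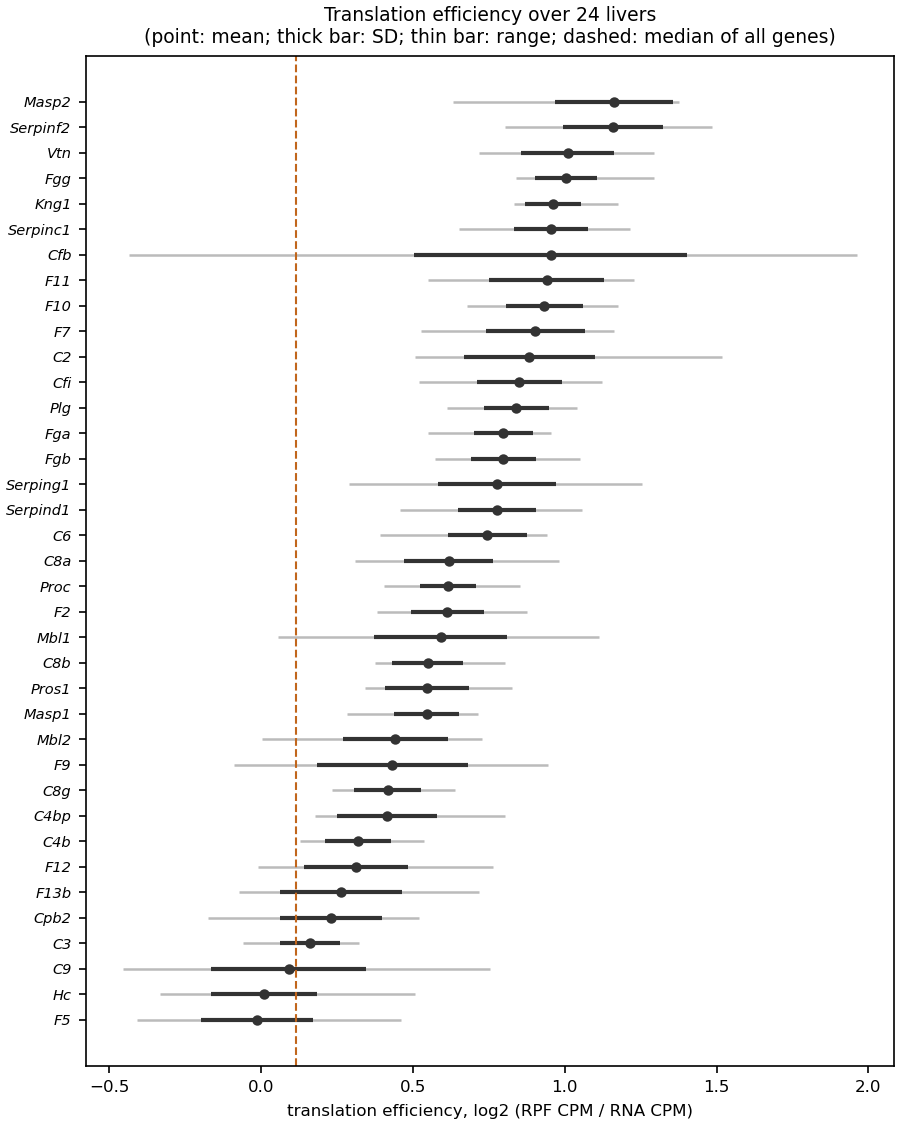
Mean TE (log2 of RPF CPM over RNA CPM) of 37 genes over 24 livers, with the SD (thick bar) and the range (thin bar); the dashed line is the median of all genes, 0.11. Most genes lie to the right of it, and Cfb has the widest range, -0.44 to 1.96.

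Cfb had the largest spread of TE between livers, 0.95 ± 0.45 (SD, n = 24), and many of its reads lay outside the coding sequence. Only 29.4% of its RNA counts over all libraries were in the CDS column, and its CDS count was as low as 53 in the RNA library with the fewest. The 5′UTR column held a median of 16.1% of Cfb RPF counts (8.96% to 23.99% over 24 libraries), against 1.98% for all genes together. The share was lowest in Ireb2-/- ZT12 replicate 2 (45 of 502 counts) and highest in Ireb2+/+ ZT5 replicate 1 (172 of 717). In the RNA libraries the 5′UTR share of Cfb was higher still, 34.5% against 4.96% for all genes. Cfb lies 87 bases from C2 on chromosome 17 (34856374 to 34862514, GRCm38.p6), and how reads near that border were assigned is not given in the sources used here.

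The other members with a median 5′UTR share of RPF counts above 5% were C4bp (8.26%), Mbl2 (7.76%), Proc (6.42%) and Mbl1 (5.47%), 5 of 37 with Cfb. Their RNA 5′UTR shares were 9.75%, 13.2%, 5.40% and 11.1%, so that Proc alone of the 5 had an RPF share above its RNA share. In 25 members the RPF share was under 1%.

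For related genes outside the list, the counts are to be read against the 22.3% (RNA) and 31.8% (RPF) of all genes called between the times. Of 25 other complement genes tested (33 listed, with receptors and regulators), 2 passed for RNA, both lower at ZT12, and 5 for RPF, 4 of them lower. C1rl fell by 0.40 on the log2 scale (SE 0.06) and Fcna by 0.28 (SE 0.09), and C1ra RPF rose by 0.21 ± 0.06, which is uncertain because C1ra has a near copy. Of 29 other coagulation and fibrinolysis genes, 5 were lower and 3 higher for RNA. Tfpi2, an inhibitor of serine proteases, changed by -0.70 ± 0.12 and Itih1 by -0.24 ± 0.06, while Lman1, a cargo receptor for factors V and VIII, rose by 0.23 ± 0.07 and Pzp by 0.22 ± 0.08. For RPF 8 were lower and 1 higher. In the vitamin K cycle 2 of 7 genes were higher for RNA, Aifm2 by 0.47 ± 0.10 and Vkorc1l1 by 0.61 ± 0.22.

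Of the 24 genes of the acute phase list, 6 were higher and 2 lower at ZT12 for RNA (7 and 3 for RPF), with a median of 0.04 for RNA, beside 22.3% and 31.8% of all genes called. The receptor gene Il6ra rose by 1.38 ± 0.15 and the transcription factor gene Cebpb by 0.92 ± 0.11, while Cp and Crp changed by -0.20 ± 0.06 and -0.24 ± 0.08. Of 16 core clock genes 7 were higher and 4 lower for RNA, among them Ciart (3.05 ± 0.31), Tef (0.96 ± 0.11), Clock (-0.72 ± 0.10) and Arntl (-1.95 ± 0.28).

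Klkb1, whose product activates factor XII and releases bradykinin from kininogen, could not be tested like the rest. Its 28238 RNA counts and its RPF counts (55 in the 12 ZT5 and 53 in the 12 ZT12 libraries) were all in the 3′UTR column, and its CDS count was 0 in all 48 libraries. Scaled to CPM by the CDS counts of the library, the RNA 3′UTR counts were 249 to 602 at ZT5 (median 491) and 379.6 to 623 at ZT12 (median 478), and the groups overlapped. Its RPF counts were 1 to 10 per library, and no TE was computed.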

How the data were processed

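Total RNA and monosome footprint (RPF) libraries of 24 livers were deposited as 77 runs. Per the study's methods and the submitters' processing notes, the authors trimmed reads with cutadapt 3.5, kept 24 to 35 nt (RPF) or 21 to 60 nt (RNA), removed rRNA and tRNA reads with Bowtie2, aligned with STAR and used mouse annotation of Ensembl release 100. The deposited values are raw counts per gene for 5′UTR, CDS and 3′UTR, and in a further column (column 6) whose content is not given in the sources used here, which held up to 24.8% of a member's RNA counts (C8g). The counter and its strand setting are not given in the sources used here.

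Runs of a library were summed to 48 libraries, and CDS counts (column 3) were tested. Genes passed edgeR's filterByExpr (minimum count 10, minimum total 15). Libraries were scaled by upper-quartile factors and tested with edgeR 4.0.16's robust quasi-likelihood test in R 4.3.3, with Benjamini-Hochberg adjustment over all tested genes at 0.05. TE was tested as the difference of RPF and RNA changes with a term for each mouse. RNA, RPF and TE comparisons share mice. Correlations used 100000 permutations within groups. DESeq2 1.42.0, TMM scaling, other filters, 1 run alone, other count columns, other sets of mice and the replicate block were alternatives, as was leaving out each mouse.

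The members and lists were chosen with earlier results of these data known. Every member is named with a value. Values by liver (for 12 livers, the range) are given for members past the threshold (at most 12 per comparison, those with the largest change) and, for RNA over all genotypes, for the uncalled member of each role with the most counts. Further values of uncalled members were chosen after they were seen. From each related list at most 2 higher and 2 lower genes with the smallest adjusted p are named. An uncalled member is not shown to be unchanged. Each p-value of the edgeR tests rests on the spread between mice of the same group, pooled over the groups in the fit. For TE this is the spread of RPF relative to RNA. Counts per library limit precision, with the fewest CDS counts among the 37 tested members in C2 (43 in 1 RNA library).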

Additional observations from a re-analysis of the deposited data

Results flagged for a closer look

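Klkb1 had a signal outside the CDS column that the comparisons used. Its 3′UTR column held 14497 RNA counts over the 12 ZT5 livers and 13741 over the 12 ZT12 livers, and 55 and 53 RPF counts, while its CDS column held 0 in all 48 libraries.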

How the results depend on the processing

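Of 1913 alternative values for 89 results, 1758 kept their direction, their side of the threshold and, for counts, stayed within 1.5 times of the reported count. None reversed. Over all genotypes, 8 to 12 members passed between ZT5 and ZT12 for RNA (12 reported) and 9 to 11 for RPF (11 reported) across settings, and 9 to 12 in both with single mice left out. Shares of all genes under these alternatives are not given, so a change of a count is not a result about the members alone. The calls of Fga, Fgb, Fgg, Serpinf2, Mbl1, C8g and F5 in RNA and RPF, of Cpb2 in RNA, and of C2 and Pros1 in RPF, held under each of these. Those of F10, Pros1 and C2 (RNA), Plg and Vtn did not, as given beside their values. Vtn RPF was lost without Aco1+/+ ZT12 replicate 2, Aco1-/- ZT12 replicate 3, Ireb2-/- ZT12 replicate 1 or Ireb2+/+ ZT5 replicate 2, and Plg RPF without Ireb2-/- ZT12 replicate 3, Ireb2-/- ZT5 replicate 2 or Ireb2+/+ ZT5 replicate 2.

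Counts within genotypes were less stable, and the cause was not tested. They too are given without the shares of all genes in each setting. The RNA count in Ireb2-/- (1) became 0 with DESeq2, no filter on low counts, the first run alone, all count columns, the replicate block and all 8 groups in one fit, and 2 with only the 6 mice compared. The RPF count in Aco1-/- (5) became 8 with all 8 groups in one fit. With only the 6 mice compared, the RPF count became 2 in Ireb2+/+ and 0 in Ireb2-/- (1 in each as reported), and the TE count became 2 in Aco1+/+ and 1 in Ireb2-/- (0 in each). For the difference between lines in RPF (0), DESeq2 gave 3, a stricter filter 2, and the first run alone and the replicate block 1 each. The median TE of members (0.62) was 0.54 with TMM, 1.41 with all count columns and 0.51 with the stricter filter. With single mice left out, RNA counts were 4 to 7 in Aco1+/+, 3 to 5 in Aco1-/-, 0 to 1 in Ireb2+/+ and 0 to 1 in Ireb2-/-. RPF counts were 3 to 7, 4 to 8, 0 to 2 and 0 to 3 in the same order, and 0 to 4 for the difference between lines. TE counts were 0 to 1 over all genotypes (C9, without Ireb2+/+ ZT5 replicate 3), 0 to 1 in Ireb2+/+ (without the same mouse) and 0 to 1 in Aco1-/- (Mbl1, without Aco1-/- ZT12 replicate 3).

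Same replicate numbers were not taken as pairs, because not every pair's deviations correlated above 0.1: over 12 pairs of mice, each checked in RNA and in RPF, the correlation ran from -0.086 to 0.258, and in 12 of these 24 checks it was highest for the shared number. Apart from the counts above, the replicate block gave 6 in place of 5 for RPF in Aco1-/-.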
